A study of Rattus norvegicus with 13 samples.

Results

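Undernutrition during ethanol feeding was examined in the liver of pregnant rats by setting 4 EtOH-160 arrays against 3 EtOH-220 arrays, 7 of the 13 arrays of the study. EtOH-160 rats were undernourished and received 12 g ethanol per kg per day in a diet of 160 kcal per kg body weight to the power 0.75 per day. EtOH-220 rats received the same ethanol in a diet of 220 kcal on that scale, so ethanol is common to both groups and energy supply is the labelled difference. All animals were time-impregnated Sprague Dawley females. The remaining 6 arrays came from rats without ethanol, undernourished (TEN-160) or at the higher energy supply (TEN-220), with 3 arrays each. Whether each array holds a single animal or a pool is not stated in the labels, and the day of gestation and the hour of death are not given in the sources used here, so p-values measure only the spread between these samples. Total RNA was hybridised to one-colour Affymetrix rat arrays, 1 per sample. Of the 8740 probe sets that are not controls, 5244 were bright enough to be tested, and these stand for 3130 named genes. Changes below are EtOH-160 minus EtOH-220 on the log2 scale with the model's standard error (SE). Levels are normalized signals, and a probe set was called at a Benjamini-Hochberg adjusted p under 0.05 in limma, a linear model fitted to all probe sets at once. Levels compare arrays for 1 probe set and not 1 probe set with another.

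When energy intake falls, the liver turns from storing fuel to releasing it: amino acids are broken down for glucose, their nitrogen leaves through the urea cycle, and fat synthesis is reduced. Glucocorticoids, glucagon and insulin set much of this programme. The liver also holds a circadian clock, in which CLOCK and BMAL1 drive the repressors Nr1d1 and Nr1d2 and the output factor Dbp, and the repressors in turn act on Bmal1. Feeding time is a strong time signal for this clock, and its genes swing widely over the day.

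Undernourished ethanol-fed rats had higher signals of the clock repressors Nr1d1 and Nr1d2, of the amino acid and urea cycle enzymes Sds and Asl and of the transcription factor Klf9. The cytoplasmic actins Actb and Actg1 were lower. In all, 15 of 5244 probe sets were called, 0.286% of those tested, of which 11 were higher (0.21%) and 4 lower (0.0763%). With median-centred values 13 were higher and 2 lower, and with the 7 arrays normalized and fitted alone 7 were higher and 0 lower (545 at an unadjusted p under 0.05 in limma). Of the 15, these 7 held only Nr1d1 M25804_at, rc_AI102562_at, rc_AI176456_at and S68944_r_at. The called probe sets of Nr1d2, Sds, Asl, Klf9, Actb and Actg1 were not among them. At the looser adjusted p under 0.10 the count was 54 (1.03%). At an unadjusted p under 0.05 there were 587 probe sets (11.2%; 325 higher, 6.2%, and 262 lower, 5%), where 262.2 would be expected under no difference. The arrays of the groups did not overlap for 537 probe sets (10.2%), higher in 308 (5.87%) and lower in 229 (4.37%). The median change over all probe sets was 0.01, and the median SE 0.24. The number of calls depended on single arrays. Without EtOH-160 replicate 1 it was 52, and without EtOH-220 replicate 2 it was 29. It was 5 without EtOH-160 replicate 2, 4 without EtOH-220 replicate 1, 6 without EtOH-220 replicate 3, and 0 without EtOH-160 replicate 3 or 4, where limma still gave 479 and 527 probe sets with an unadjusted p under 0.05.

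**Figure D1:**
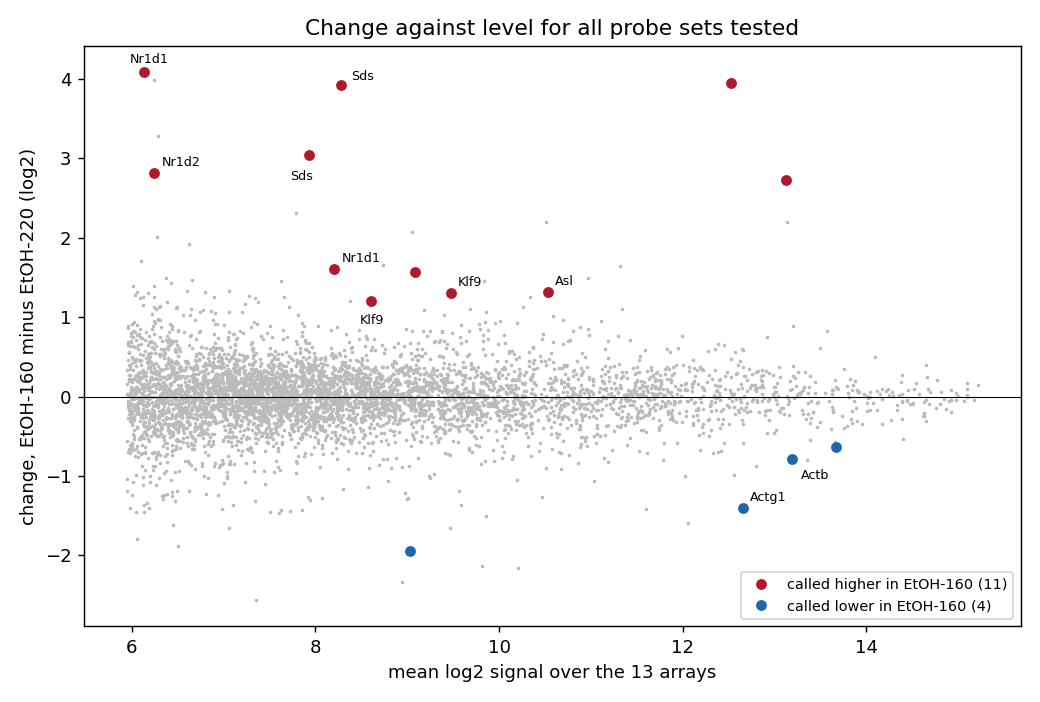
Change (EtOH-160 minus EtOH-220, log2) of each of 5244 probe sets against its mean log2 signal over the 13 arrays. Red points are the 11 called higher and blue points the 4 called lower; those that name 1 gene carry its symbol, and the 4 called lower have mean log2 signals of 9.03 to 13.7.

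The 7 arrays were not alike in everything but diet. The ratio of the 3' to the 5' control probe sets of Gapdh, which reflects RNA integrity, was 1.505 to 1.726 in EtOH-160 and 1.038 to 1.47 in EtOH-220. These ranges did not overlap (exact permutation test, two-sided p = 0.0571, the smallest that 35 splits allow). The same ratio for actin overlapped (exact two-sided p = 0.971). With the Gapdh ratio as a covariate 3 probe sets were called: Actg1 and, without a single gene, rc_AI102562_at and rc_AI176456_at. The changes were then 4.22 for Nr1d1, 3.29 for Nr1d2, 4.43 for Sds, 1.31 for Asl, 1.28 for Klf9, −0.84 for Actb and −1.65 for Actg1. The SE rose, from 0.192 to 0.255 for Asl and from 0.208 to 0.276 for Klf9. Because the ratio did not overlap between the groups, this fit cannot fully separate it from diet. On the first principal component of the 7 arrays (32.4% of the variance) EtOH-220 replicate 1 lay at −37.0 and the other 6 arrays between −5.52 and 16.0. EtOH-160 replicate 1 was the EtOH-160 array nearest to the EtOH-220 mean in 15 of the 15 called probe sets, against 41.2% of those with an unadjusted p under 0.05 and 28% of all. As to cell types, 9 hepatocyte markers had a summed signal of 206952 to 215466 in EtOH-160 and 205609 to 215914 in EtOH-220, and all 9 were above background. Summed signals of 11 Kupffer cell, 6 lymphocyte, 10 stellate cell, 9 endothelial and 4 cholangiocyte markers overlapped between the groups. Of the 11 Kupffer cell and macrophage markers 9 had negative changes, with a median of −0.26, and 2 were past an unadjusted p of 0.05 downward; 1 neutrophil marker was measured. For 4 erythroid markers (Hbb, Hbb-b1, Alas2 and Slc4a1) the sums did not overlap, with 8479 to 15192 in EtOH-160 and 15910 to 24267 in EtOH-220. This sum follows mainly Hbb and Hbb-b1, which had the highest signals. The changes were −0.79 for Hbb, −0.69 for Hbb-b1, −0.53 for Alas2 and 0.50 for Slc4a1, and only Hbb was without overlap. The part of these cell types in the results below was not tested. In bulk RNA, fewer cells of a type and less RNA per cell cannot be told apart.

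**Figure D2:**
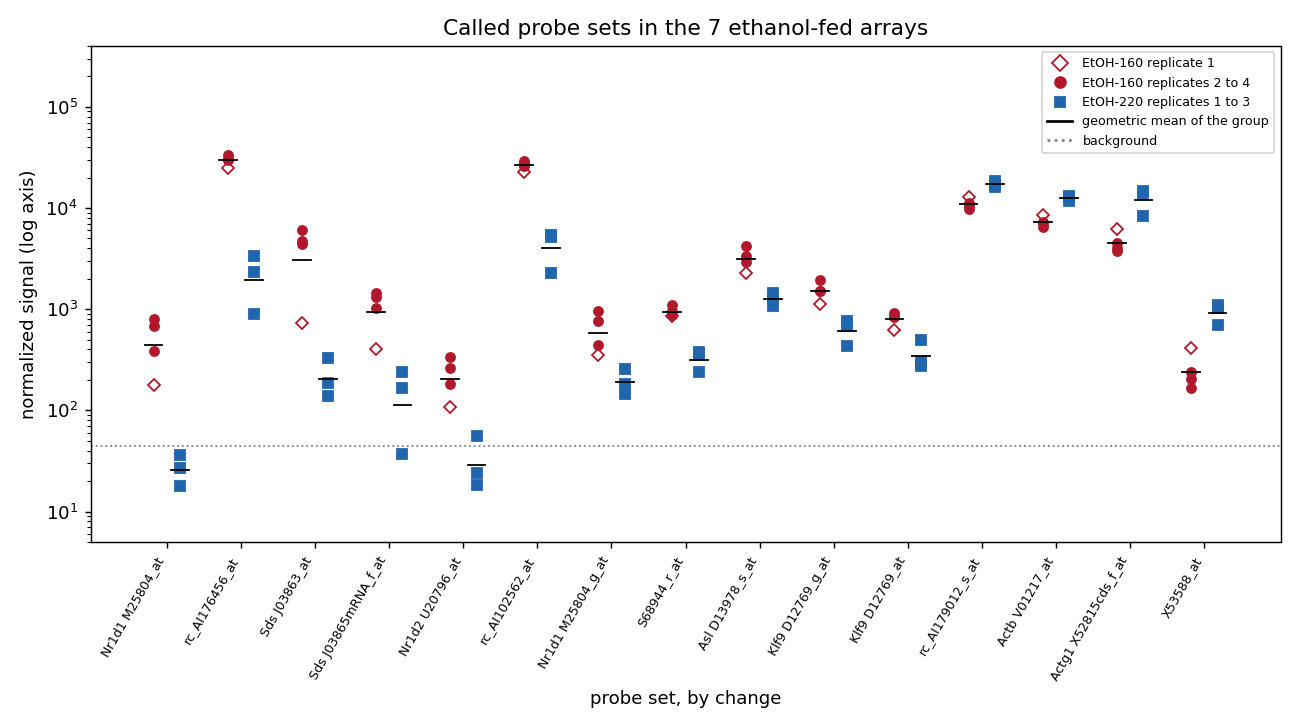
Normalized signal (log axis) of the 15 called probe sets in each of the 7 arrays, ordered by change. EtOH-160 arrays are red, with replicate 1 as an open diamond, EtOH-220 arrays are blue squares, black bars are geometric means of a group and the dotted line is the background of 44. In each probe set the open diamond is the red point nearest to the blue ones.

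Nr1d1 of the clock gave the largest called change. The start regions of Nr1d1, Nr1d2 and Bmal1 are shown because these genes regulate each other through known short motifs. Each sequence is the 250 bases before a RefSeq start on GRCr8, in the gene's direction. For Nr1d1 it is chr10:84229455-84229704 (minus strand, the second of 2 starts), for Nr1d2 chr15:9954784-9955033 (plus strand) and for Bmal1 chr1:176766078-176766327 (plus strand). Capitals mark the E-box CACGTG, the motif of CLOCK and BMAL1, in Nr1d1, and the half-site AGGTCA, which NR1D1, NR1D2 and the ROR receptors bind, in the others.
Nr1d1: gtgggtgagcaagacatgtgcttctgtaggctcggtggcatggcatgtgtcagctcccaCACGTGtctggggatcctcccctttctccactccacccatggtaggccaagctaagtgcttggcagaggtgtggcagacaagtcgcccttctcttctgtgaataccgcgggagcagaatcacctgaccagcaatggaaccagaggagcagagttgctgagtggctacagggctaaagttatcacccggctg
Nr1d2: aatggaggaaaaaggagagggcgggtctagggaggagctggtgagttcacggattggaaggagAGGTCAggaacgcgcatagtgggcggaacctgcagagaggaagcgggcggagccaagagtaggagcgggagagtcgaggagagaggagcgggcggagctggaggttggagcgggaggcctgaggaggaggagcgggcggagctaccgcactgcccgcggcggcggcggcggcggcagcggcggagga
Bmal1: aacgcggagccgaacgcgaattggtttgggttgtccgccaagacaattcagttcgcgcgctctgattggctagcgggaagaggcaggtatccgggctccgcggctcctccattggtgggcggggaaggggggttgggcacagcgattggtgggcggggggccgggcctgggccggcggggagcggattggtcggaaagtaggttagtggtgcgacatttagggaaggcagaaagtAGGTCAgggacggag
Both strands were searched. The CACGTG lies 191 to 186 bases before the Nr1d1 start, and 5.59% of 33469 rat windows of this length hold one. AGGTCA lies 187 to 182 bases before the start of Nr1d2 and 15 to 10 before that of Bmal1, and 14.1% of windows hold it. CACGTG also stands in the window of Actg1, printed with the actins, which were lower. The windows of Dbp, Klf9, Asl and the first Nr1d1 start held neither motif, which says nothing about the factors. A match describes letters and is no evidence of binding.

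Nr1d1, also called REV-ERB alpha, is a nuclear receptor that represses transcription. On its probe set M25804_at it had signals of 179, 390, 793 and 677 in EtOH-160 and 17.9, 36 and 26.9 in EtOH-220. All EtOH-160 arrays were above the background of 44 and all EtOH-220 arrays below it. The change was 4.09 (SE 0.574, adjusted p = 0.00934), and with EtOH-220 at the background the level in EtOH-160 was at least 9.999-fold higher. On the probe set M25804_g_at the signals were 350, 445, 951 and 760 in EtOH-160 and 145, 256 and 183 in EtOH-220. The groups again did not overlap, and the change was 1.61 (SE 0.297, adjusted p = 0.0415), so both probe sets of the gene were called higher and differed in size. The call on M25804_at was lost without EtOH-220 replicate 1 (change 3.81, adjusted p = 0.0578), and in 3 of 13 omissions this probe set was too dim to be tested. The call on M25804_g_at was lost in 10 of 13 omissions, at changes of 1.37 to 1.73.

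Nr1d2, or REV-ERB beta, is the close relative of Nr1d1. Its signals were 108, 183, 337 and 260 in EtOH-160 and 18.2, 23.8 and 56.1 in EtOH-220. The groups did not overlap, and EtOH-160 replicate 1 was the lowest of its group, as it was for Nr1d1. The change was 2.81 (SE 0.458, adjusted p = 0.0159), at least 4.28-fold with the 2 EtOH-220 arrays below the background set to it. It was not called without EtOH-220 replicate 1, nor without EtOH-160 replicate 2, 3 or 4, at changes of 2.47 to 2.86.

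Dbp, a transcription factor of the PAR bZIP family that carries clock output to liver genes, did not pass. Its signals were 41.2, 750, 1141 and 948 in EtOH-160 and 24.1, 26.8 and 29.9 in EtOH-220. The groups did not overlap, but EtOH-160 replicate 1 lay just above the EtOH-220 arrays and, like them, below the background. The other 3 EtOH-160 arrays lay far above the background. The change was 3.99 (SE 0.897, adjusted p = 0.0875), at least 9.71-fold. Without EtOH-160 replicate 1 it was 5.10 and was called.

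Bmal1, the activator that Nr1d1 and Nr1d2 repress, had a change of −1.36 (SE 0.392, adjusted p = 0.173) on 1 probe set, with signals of 120, 59.4, 33.2 and 60.9 in EtOH-160 and 254, 130 and 121 in EtOH-220. These ranges lay just apart. On the other probe set the change was −1.43 (SE 0.684, adjusted p = 0.466), with overlapping groups. Among the 8 measured genes of the clock list, each by its brightest probe set, 2 were called higher and 0 lower. An unadjusted p under 0.05 was found for 3 upward and 0 downward, and the median change was 0.21. The dimmer Bmal1 probe set, with −1.36, was past that p downward and is not in this count. Over all 3130 genes, each by its brightest probe set, 6.52% had an unadjusted p under 0.05 upward and 4.28% downward, and the median was 0.03. Tef, a relative of Dbp, had a change of 0.40 and Hlf one of −0.24. Per2 was not among the probe sets tested.

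Amino acid breakdown was led by Sds, serine dehydratase, which turns serine into pyruvate for glucose synthesis. Its probe set J03863_at had signals of 738, 4700, 6033 and 4384 in EtOH-160 and 185, 326 and 140 in EtOH-220. The groups did not overlap, although EtOH-160 replicate 1 lay well below the other EtOH-160 arrays. The change was 3.93 (SE 0.616, adjusted p = 0.0159), a 15.2-fold difference of geometric means. The second probe set, J03865mRNA_f_at, had 403, 1035, 1433 and 1313 in EtOH-160 and 165, 241 and 37.3 in EtOH-220. Its groups did not overlap, and its change was 3.05 (SE 0.586, adjusted p = 0.0498). The first call was lost without EtOH-220 replicate 1 or 3, and without EtOH-160 replicate 2, 3 or 4, at changes of 3.60 to 3.85, and the second in 10 of 13 omissions, at 2.24 to 3.31.

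In the list of amino acid catabolism 21 of 25 measured genes had a positive change, against 54% of all genes, and the median was 0.23. Only Sds was called, and 5 genes were past an unadjusted p of 0.05 upward and 1 downward. Those upward besides Sds were Got1, the cytosolic aspartate aminotransferase (1.45, adjusted p = 0.0767), Hpd of tyrosine breakdown (0.35), Dao, D-amino acid oxidase (0.65), and Hibadh of valine breakdown (0.33). Kynu, of tryptophan breakdown, was downward (−0.33). Got1 had signals of 1006, 2126, 2796 and 1755 in EtOH-160 and 822, 556 and 621 in EtOH-220, without overlap. Tat and Tdo2, classical glucocorticoid-induced enzymes of tyrosine and tryptophan breakdown, had changes of 0.34 (SE 0.226) and 0.12 (SE 0.176) and were not called.

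The urea cycle had the highest median of the 29 lists, 0.50, with 6 of 8 measured genes positive. Asl, argininosuccinate lyase, which releases arginine in the cycle, rose. Its probe set D13978_s_at had signals of 2274, 3369, 4239 and 2906 in EtOH-160 and 1077, 1276 and 1430 in EtOH-220. Every EtOH-160 array was above every EtOH-220 array, and the change was 1.32 (SE 0.192, adjusted p = 0.00934), or 2.49-fold. The other Asl probe set had 2221, 2255, 3106 and 2634 in EtOH-160 and 1422, 1317 and 1682 in EtOH-220, without overlap. Its change of 0.79 was not called (adjusted p = 0.11). The first call was lost without EtOH-220 replicate 1, and without EtOH-160 replicate 3 or 4, at changes of 1.17 to 1.35.

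The other members past an unadjusted p of 0.05 were Gls2, the liver glutaminase (0.91), Ass1, which makes the substrate of Asl (0.89), Otc, which forms citrulline (0.56), and Arg1, which releases urea (0.45). None of these 4 was called, and in all 4 the groups did not overlap, as in 6.39% of all genes upward and 3.87% downward. Cps1, which feeds ammonia into the cycle, had −0.07 (SE 0.139) on its brighter probe set and 0.04 on the other. Glul, which fixes ammonia in glutamine, had −0.08. Without EtOH-160 replicate 1 the median of the list was 0.60, and without EtOH-220 replicate 1 it was 0.53. Several of these genes mark hepatocytes of the periportal zone. The summed signal of 11 periportal markers was 47988 to 71441 in EtOH-160 and 39706 to 41817 in EtOH-220, without overlap. Of the 11, 7 belong to the lists of the urea cycle and amino acid catabolism, so the sum holds the values given above and is no separate measure of the zone. The other 4 (Pck1, Sult5a1, Hsd17b13 and Cyp2f4) had a median of 0.11, none past an unadjusted p of 0.05, and their sums overlapped (4214 to 8860 in EtOH-160 and 3959 to 5809 in EtOH-220). Hal, a further marker, had −0.09. For 9 pericentral markers the sums overlapped (44906 to 49821 in EtOH-160 and 42853 to 47437 in EtOH-220).

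Klf9 is a zinc finger factor that glucocorticoids and thyroid hormone induce. It rose on both of its probe sets. On D12769_g_at it had signals of 1139, 1521, 1937 and 1524 in EtOH-160 and 685, 763 and 435 in EtOH-220. The groups did not overlap, and the change was 1.30 (SE 0.208, adjusted p = 0.0159). On D12769_at it had 621, 852, 830 and 919 in EtOH-160 and 276, 498 and 299 in EtOH-220, a change of 1.21 (SE 0.225, adjusted p = 0.0429). The groups were apart there too. The first call was lost without EtOH-220 replicate 1 or 3, and without EtOH-160 replicate 2, 3 or 4, at changes of 1.06 to 1.38, and the second in 9 of 13 omissions, at 1.04 to 1.21. Of 15 measured glucocorticoid-induced genes, each by its brightest probe set, Klf9 alone had an unadjusted p under 0.05 upward and 0 downward. The median was 0.19, and 11 changes were positive. Dusp1 of this list had changes of −1.30 to −0.71 on 3 probe sets. Of these, 1 that is not its brightest was past that p downward. Pck1, the gluconeogenic enzyme phosphoenolpyruvate carboxykinase, had a change of 0.97 (SE 0.591, adjusted p = 0.579), with signals of 1355, 2731, 4744 and 4263 in EtOH-160 and 1404, 2922 and 823 in EtOH-220, which overlapped.

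The annotation gave no single gene for 5 called probe sets. For rc_AI176456_at and rc_AI102562_at it lists several genes each, so no gene is named. The first had signals of 25105, 30661, 33600 and 29800 in EtOH-160 and 2353, 3362 and 899 in EtOH-220. Its change was 3.95 (adjusted p = 0.0159), with a wide gap between the groups. The second had 22924, 27712, 26090 and 29334 in EtOH-160 and 2290, 5391 and 5161 in EtOH-220, a change of 2.72 (SE 0.369, adjusted p = 0.00934). Its call was lost only with no filter and without EtOH-160 replicate 3 or 4, where no probe set was called. The call on rc_AI176456_at was lost there too. It was also lost with the replicate block and without EtOH-220 replicate 1 or 3 or EtOH-160 replicate 2. The other calls of this group were lost in more settings. For S68944_r_at and X53588_at the annotation names no gene. S68944_r_at had 861, 952, 1111 and 868 in EtOH-160 and 241, 378 and 354 in EtOH-220, a change of 1.57 (adjusted p = 0.02). X53588_at was lower, with 412, 238, 166 and 202 in EtOH-160 and 1102, 1029 and 698 in EtOH-220, a change of −1.95 (adjusted p = 0.0361). The fifth, rc_AI179012_s_at, for which several genes are listed, had a change of −0.64 (adjusted p = 0.0429). No groups overlapped in these 5.

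The cytoplasmic actins form the thin filaments of the cell cortex and of the canalicular border of hepatocytes. Both were lower in undernourished rats. The start region of Actg1, chr10:106120952-106121201 (GRCr8, RefSeq, minus strand), is shown because actin genes carry a CArG box, the site of serum response factor (SRF). Capitals mark an E-box CACGTG and then the CArG box.
Actg1: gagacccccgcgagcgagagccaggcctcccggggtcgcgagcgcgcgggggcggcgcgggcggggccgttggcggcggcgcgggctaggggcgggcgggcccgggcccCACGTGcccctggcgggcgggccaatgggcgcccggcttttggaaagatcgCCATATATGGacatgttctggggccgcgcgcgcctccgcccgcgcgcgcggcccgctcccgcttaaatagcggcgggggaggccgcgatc
The E-box lies 141 to 136 and the CArG box 90 to 81 bases before the start, and 1.5% of the 33469 windows hold a CArG box on either strand.

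Actb, beta-actin, had signals of 8526, 6444, 7052 and 7248 on V01217_at in EtOH-160 and 12750, 13071 and 11849 in EtOH-220. All EtOH-160 arrays were below all EtOH-220 arrays. The gene fell, with a change of −0.79 (SE 0.112, adjusted p = 0.00934). Actg1, gamma-actin, had signals of 6170, 4065, 3791 and 4501 in EtOH-160 and 8414, 13889 and 14892 in EtOH-220. It fell by 1.40 (SE 0.205, adjusted p = 0.00934), again without overlap. Its probe set ends in f_at, the array's mark for a probe set that reads a family of similar sequences, so the related actins cannot be told apart. The Actb call was lost without EtOH-160 replicate 3 or 4, at −0.78, and the Actg1 call without either of them or EtOH-220 replicate 3, at −1.40 to −1.25.

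The array's own actin controls, which took no part in these calls, gave the same order. The 3' control had signals of 6406, 3706, 4460 and 4746 as deposited in EtOH-160 and 9960, 8697 and 8953 in EtOH-220, a difference of −0.96. The middle and 5' controls differed by −0.88 and −0.97. None of the 3 overlapped (exact permutation test, two-sided p = 0.0571 each, the smallest possible). They read the same RNA samples as the Actb probe set and are not separate evidence of replication. The 3' and middle Gapdh controls overlapped between the groups, with differences of 0.12 and 0.06.

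In the list of actins and actin-binding proteins 23 of 28 measured genes had a negative change, against 1441 of all 3130 genes, and the median was −0.17. It was −0.15 without EtOH-160 replicate 1. Actb and Actg1 were called and 0 genes were called higher. Unadjusted p values under 0.05 were found for 4 genes, all lower: both actins, the tropomyosin Tpm3 (−0.39) and the crosslinker Actn4 (−0.41). Cap1, which recycles actin monomers, had −0.49, and profilin Pfn1 and thymosin Tmsb4x, which bind monomers, had −0.16 and −0.17. Ezr, which ties filaments to the membrane, had 0.68 and the myosin light chain Myl9 0.95. Of 9 tubulins and intermediate filament genes the median was 0.05, a sign that turned under 3 of 9 settings. Tuba4a had −1.14 with an unadjusted p of 0.00824.

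Chaperones had mostly negative changes, and none was called. Of 13 measured heat shock proteins 11 were negative, against 1441 of all 3130 genes, with a median of −0.44. Over all genes 4.28% had an unadjusted p under 0.05 downward, and of these 13 proteins 4 had, with none upward. These were Hsp90ab1, the constitutive cytosolic HSP90 (−0.46, adjusted p = 0.134), Hsph1, or HSP110, which helps HSP70 release its substrate (−0.86, adjusted p = 0.166), Hspa4 (−0.45) and the co-chaperone Dnaja1 (−0.51). Without EtOH-220 replicate 1 the median of the list was −0.14. Of 14 endoplasmic reticulum chaperones and stress genes 10 were negative, with a median of −0.17, and the 4 lower genes past an unadjusted p of 0.05 were all folding proteins of the organelle: Hyou1 (−0.81), Hsp90b1 (−0.77), Hspa5 (−0.50) and Pdia4 (−0.67). The 1 gene upward was Asns, asparagine synthetase (0.61).

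Genes of glucose release were not called. Slc37a4, the transporter that carries glucose 6-phosphate into the endoplasmic reticulum, had signals of 2243, 2430, 3171 and 2572 in EtOH-160 and 974, 1442 and 1492 in EtOH-220 on its dimmer probe set. The groups did not overlap, and the change was 1.01 (SE 0.199, adjusted p = 0.0516), with 0.87 (SE 0.184, adjusted p = 0.0767) on the brighter one. Fbp1, fructose bisphosphatase, had 9604, 12218, 14380 and 11397 in EtOH-160 and 5935, 6773 and 8439 in EtOH-220, a change of 0.76 (SE 0.172, adjusted p = 0.0901) without overlap. Pdk2, the kinase that holds back pyruvate dehydrogenase, had changes of 1.13 (adjusted p = 0.0788) and 0.73 on its 2 probe sets. In the list of gluconeogenesis and the fasting response 14 of 21 measured genes were positive, the median was 0.23, and 4 genes were past an unadjusted p of 0.05 upward and 3 downward. Those upward were Slc37a4, Pdk2, Fbp1 and the glucagon receptor Gcgr (0.70). Those downward were Mdh2, mitochondrial malate dehydrogenase (−0.41), and the glycerol enzymes Gpd1 (−1.03) and Gk (−0.88). In glycolysis and glycogen metabolism 5 of 15 measured genes were past that p upward and 0 downward, led by the glucose transporter Slc2a2 (0.70) and the glycogen phosphorylase Pygl (0.48).

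Gnmt, glycine N-methyltransferase, uses up the methyl donor S-adenosylmethionine. It had 3 probe sets, with changes of 1.25, 1.10 and 1.10 (adjusted p of 0.0555, 0.0767 and 0.0912), and its groups did not overlap on any of them. On its brightest probe set the signals were 3204, 5318, 7885 and 3956 in EtOH-160 and 2054, 2434 and 2243 in EtOH-220. In the list of the methionine cycle and transsulfuration 3 of 20 measured genes were past an unadjusted p of 0.05 upward and 0 downward. These were Gnmt, Dmgdh, which oxidises dimethylglycine (0.78), and Gamt, which uses the methyl group to make creatine (0.31). The other Gamt probe set had −0.01. Of the named genes that were not called, Pros1 came nearest to the threshold. It is protein S, a cofactor that restrains coagulation, and had signals of 2038, 2372, 2805 and 2093 in EtOH-160 and 1207, 1556 and 1287 in EtOH-220. The groups did not overlap. Its change was 0.78 (SE 0.152, adjusted p = 0.0509), and no other of the 14 measured coagulation genes had an unadjusted p under 0.05. Ctsl, the lysosomal protease cathepsin L, had 0.58 and 0.54 on 2 probe sets.

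**Figure D3:**
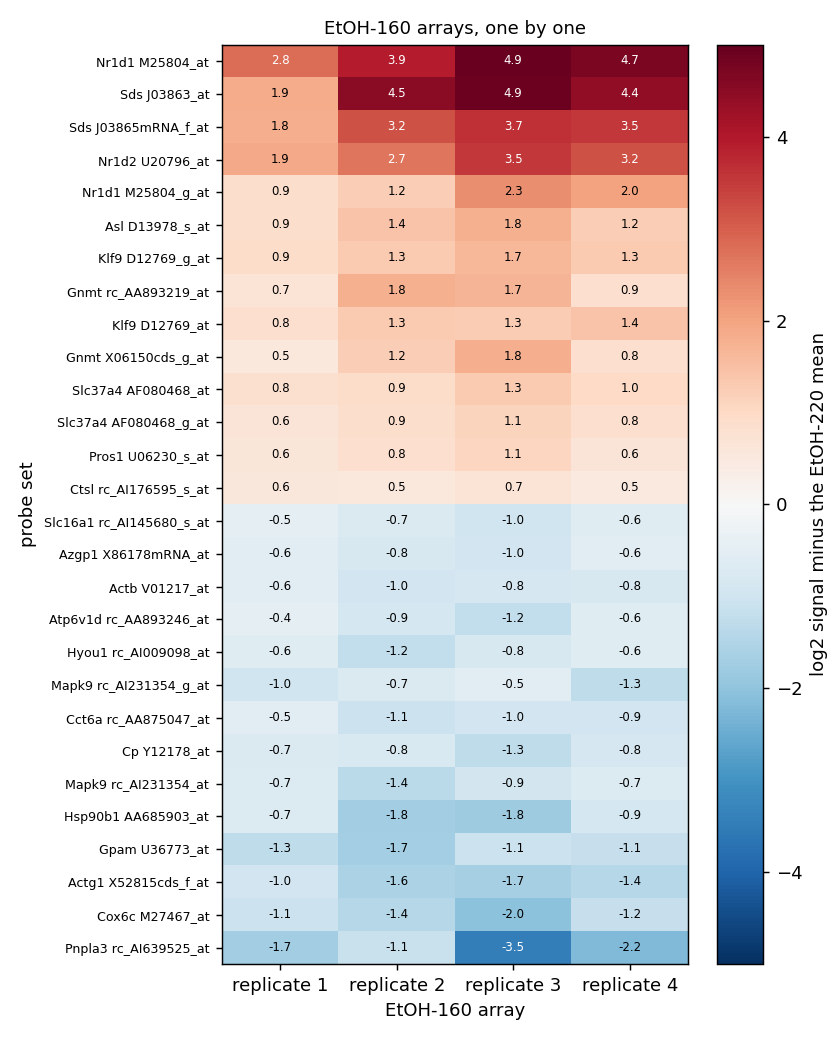
Log2 signal of each EtOH-160 array minus the mean of the 3 EtOH-220 arrays, for the 14 probe sets higher and the 14 lower with the smallest p among those that name 1 gene and whose groups do not overlap. Red is higher and blue lower in EtOH-160. Differences of replicate 1 were the smallest of its 4 arrays for both probe sets of Nr1d1, of Sds and of Klf9, and replicate 3 had the largest for Nr1d1 and Pnpla3.

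In the growth hormone, insulin and IGF axis, Igfbp2, an IGF-binding protein that the liver makes in fasting, had signals of 612, 191, 655 and 790 in EtOH-160 and 180, 59.1 and 94.1 in EtOH-220. The groups lay just apart, and the change was 2.31 (SE 0.505, adjusted p = 0.0808). Its other probe sets had 3.28 (SE 0.725), at least 5.82-fold with the 2 EtOH-220 arrays below the background set to it, and 1.20 (SE 0.721) with overlapping groups. Igf1 had 0.25 (SE 0.197) on its brightest probe set, and −0.11 to 0.60 over 5. Igfbp1 had 412, 793, 1052 and 1093 in EtOH-160 and 810, 1385 and 247 in EtOH-220, a change of 0.26 (SE 0.55) with full overlap. Of the 25 measured genes of the axis 5 were past an unadjusted p of 0.05 upward and 2 downward, and the median was 0.22. Over all genes 6.52% were past it upward and 4.28% downward.

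Lipid genes were divided. Gpam, the mitochondrial acyltransferase that starts glycerolipid synthesis, had signals of 433, 327, 498 and 473 in EtOH-160 and 1373, 702 and 1197 in EtOH-220. The groups did not overlap, and the change was −1.30 (SE 0.29, adjusted p = 0.0875). Its other 4 probe sets had changes of −0.54 to −0.96. Pnpla3, a lipid droplet protein that rises with carbohydrate feeding, had 480, 738, 144 and 352 in EtOH-160 and 1180, 1455 and 2396 in EtOH-220, a change of −2.13 (SE 0.492, adjusted p = 0.0912) without overlap. Plin2, which coats lipid droplets, had −0.70 and −1.10 on its 2 probe sets, both without overlap. Of 18 genes of fatty acid synthesis 12 were negative, with a median of −0.18, and 3 had an unadjusted p under 0.05 downward (Gpam, Pnpla3 and Elovl5, −0.46) and 1 upward (Pklr, 0.82). The central enzymes were not called. Fasn had 0.11 (SE 0.285) on its brighter probe set and 0.59 on the other, and Acaca −0.01 on its only one. Acly had −0.08 and −0.12 on its brighter probe sets and −0.75 (unadjusted p = 0.0215) on its dimmest, with overlapping groups on each. The regulator Srebf1 had −0.46 (SE 0.305).

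Over 36 measured genes of fatty acid oxidation, PPAR-alpha targets among them, the median was −0.01, 18 positive and 18 negative, and the sign of this median turned under 4 of 9 settings. Cyp4a1, which oxidises the omega end of fatty acids, had 0.76 (SE 0.226), 0.66 and 0.27 on 3 probe sets. Cpt1a, which admits fatty acids to mitochondria, had 0.66 (SE 0.295), with EtOH-160 replicate 3 at 2070 and the other 3 EtOH-160 arrays at 794 to 865. Bile acid genes had a median of 0.00 over 18, which turned sign under 2 settings, with 5 past an unadjusted p of 0.05 upward and 0 downward. They included Cyp27a1, which starts the alternative synthesis route (0.62 and 0.38), and the uptake carriers Slco1a4 (1.10) and Slc10a1 (0.61). Cyp7a1, which limits the classical route, had −0.32 (SE 0.423).

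No enzyme of ethanol oxidation was called. Cyp2e1, the ethanol-inducible cytochrome P450, had −0.06 (SE 0.149) on its brightest probe set and 0.08 and 0.03 on the others. Adh1c, the main liver alcohol dehydrogenase, had −0.35 (SE 0.123, adjusted p = 0.283) and −0.46 (SE 0.163) with overlapping groups, and Aldh2, which removes acetaldehyde, had 0.40 (SE 0.209). Over the 10 measured genes of this list the median was −0.02 and turned sign under 2 settings. Among the P450 families CYP1 to CYP3, 3 of 24 measured genes were past an unadjusted p of 0.05 upward, led by Cyp3a9 (1.65), and 2 downward, led by Cyp2c22 (−0.88). Of 28 conjugation enzymes 4 were past it upward and 3 downward, where 6.52% of all genes were past it upward and 4.28% downward. The leader was the sulfotransferase Sult1c3 (2.19, SE 0.496, adjusted p = 0.0883), with 2466, 1850, 2906 and 1507 in EtOH-160 and 397, 181 and 1371 in EtOH-220.

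Hmox1, heme oxygenase, had 1241, 1323, 1041 and 1201 in EtOH-160 and 554, 763 and 562 in EtOH-220. The groups were far apart, and the change was 0.95 (SE 0.289, adjusted p = 0.2), with 1.20 on a second probe set. It was the only gene upward, and glutathione peroxidase Gpx1 (−0.30) the only one downward, at an unadjusted p under 0.05 among 19 genes of oxidative stress defence. MHC class II and antigen presentation had 10 of 12 measured genes negative, against 1441 of all 3130, and a median of −0.26. At that p 3 genes were downward and 0 upward, where 4.28% of all genes were downward. The 3 were RT1-Ba (−0.84), RT1-Db1 (−1.27) and RT1-Da (−0.33), class II chains carried by antigen-presenting cells. The 3 probe sets of RT1-Ba disagreed in sign, with changes from −0.84 to 0.29, and only 1 was past that p. Kupffer cell and macrophage markers had the same median as the class II list, and 4 of those 11 are in it. Their summed signal was 8436 to 10549 in EtOH-160 and 8984 to 13915 in EtOH-220. The other 7, each by its brightest probe set, had a median of −0.11, with 5 negative and 0 past that p. Their sums were 5899 to 6900 in EtOH-160 and 5605 to 7524 in EtOH-220. Cd14, 1 of these 7, had 0.09 on its brighter probe set and 0.69 on the other, which was past that p upward. The part of these cells was not tested. Of 37 cytosolic ribosomal protein genes 27 were positive with a median of 0.06, and of 26 proteasome and ubiquitin genes 19 were negative with a median of −0.14. In neither list was any gene called. Afp, the fetal serum protein, had 0.05 (SE 0.319), and the acute phase proteins had a median of 0.00 over 23, which turned sign under 2 settings.

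**Figure D4:**
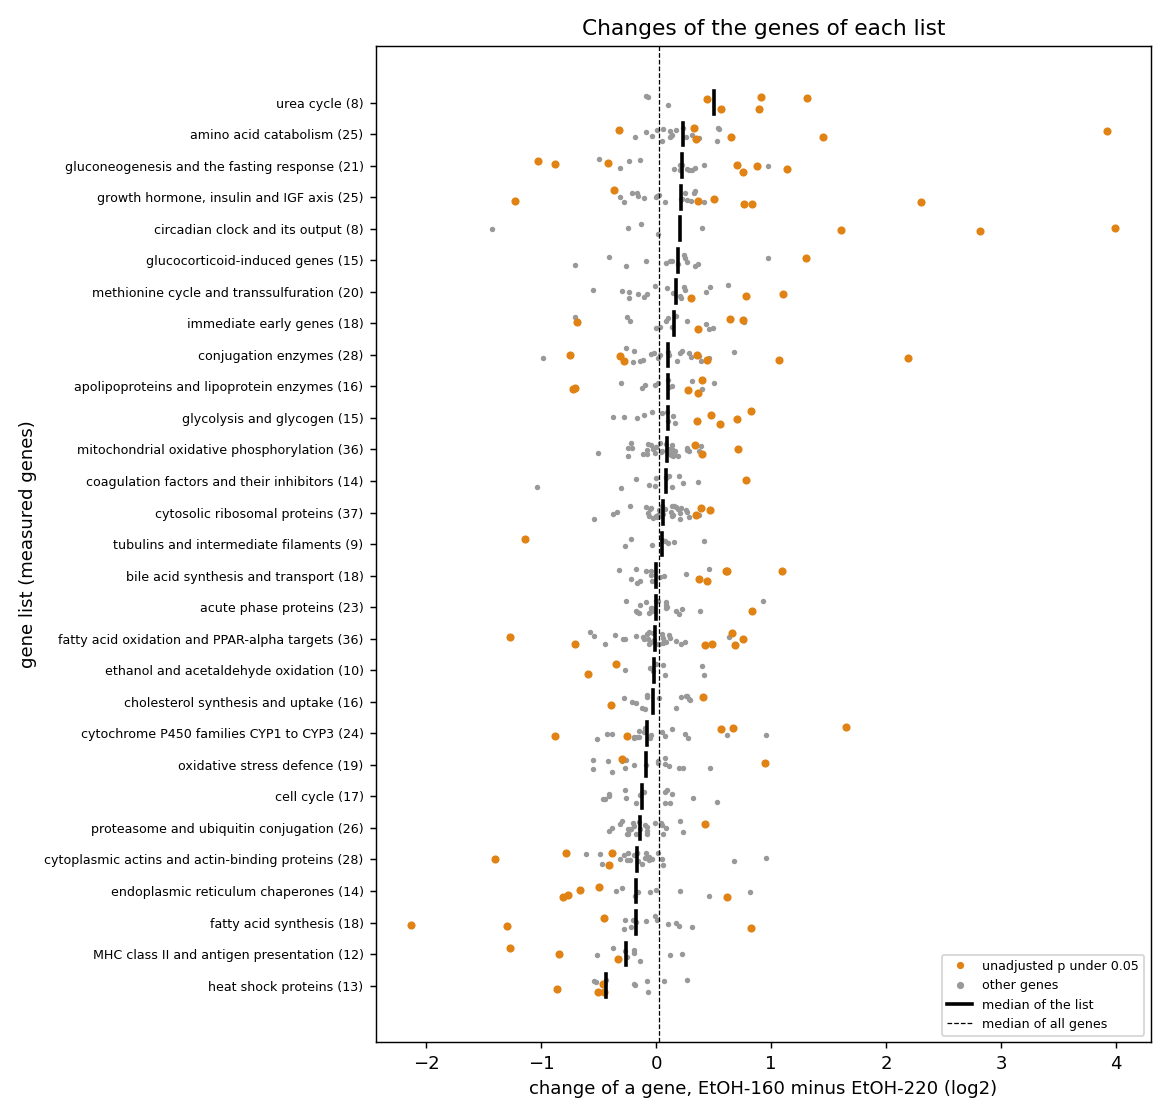
Change (EtOH-160 minus EtOH-220, log2) of the measured genes of 29 lists, each gene by its brightest probe set, with the number of measured genes in brackets. Orange points have an unadjusted p under 0.05, thick bars are medians of a list and the dashed line is the median of all 3130 genes. The medians run from 0.50 in the urea cycle to −0.44 in the heat shock proteins.

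Further probe sets among the 14 lower with the smallest p were those of Mapk9, the kinase JNK2 (−0.92, −0.88 and −0.67 on 3 probe sets), Cct6a, a subunit of the chaperonin that folds actin and tubulin (−0.88, adjusted p = 0.0904), the lactate carrier Slc16a1 (−0.69 and −0.44) and the proton pump subunit Atp6v1d (−0.79). For Cox6c and Azgp1 the probe sets disagreed in sign. Cox6c, a cytochrome oxidase subunit, had −1.42 on 1 probe set and 0.17 on the other. Azgp1, a secreted lipid-mobilising glycoprotein, had −0.73 on its dimmest probe set and 0.29 and 0.20 on the others. Cp, the copper carrier ceruloplasmin, differed in size alone, with −0.90 on its dimmest probe set and −0.67 and −0.15 on brighter ones.

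The same gene measured by different probes gave a check within these arrays. Of the 3130 genes, 882 had at least 2 tested probe sets, which form 1556 pairs. In 64.9% of pairs (95% exact binomial interval 62.5 to 67.3) both changes had the same sign. Pairs of 1 gene share its RNA, and genes with many probe sets give several pairs, so the interval covers counting error only. Agreement was higher where the signal was higher. Tested probe sets were split into 3 equal classes of brightness. With the dimmer probe set of the pair in the brightest class, 342 of 468 pairs (73.1%) had the same sign, with it in the middle class 298 of 477 (62.5%) and with it in the dimmest class 370 of 611 (60.6%). The correlation of the paired changes across pairs was r = 0.50 overall and 0.68 in the brightest class. The median absolute difference within a pair was 0.22, near the median SE of a single change.

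Pairs designed from the same sequence accession agreed in 72.8% of 470 cases and pairs from different ones in 61.5% of 1086. Where the brighter probe set had an unadjusted p under 0.05, 81.4% of 183 pairs had the same sign, and elsewhere 62.7% of 1373. At least 1 probe set was past that p in 176 of the 882 genes. In 19 genes all probe sets were past it upward: Akt1, Asl, Ctsl, Cxcl14, Cyp27a1, Gnmt, Hmox1, Ier3, Junb, Klf9, Nr1d1, Otc, Pdk2, Plpp3, Rbpms, Rpp21, RT1-S3, Sds and Slc37a4. In 10 all were past it downward: Adh1c, Cd36, Fkbp4, Hsp90ab1, Hsp90b1, Hspa5, Lrrc59, Mapk9, Plin2 and Slc35b1. Of these 10, Hsp90ab1 had 4 probe sets and Fkbp4, a co-chaperone of the glucocorticoid receptor, had 3, with changes of −1.19 to −1.01. The receptor phosphatase Ptprs and urate oxidase Uox had probe sets past it in opposite directions. Both had probe sets with changes of either sign, from −1.44 to 0.52 in Ptprs and from −0.59 to 0.30 in Uox.

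**Figure D5:**
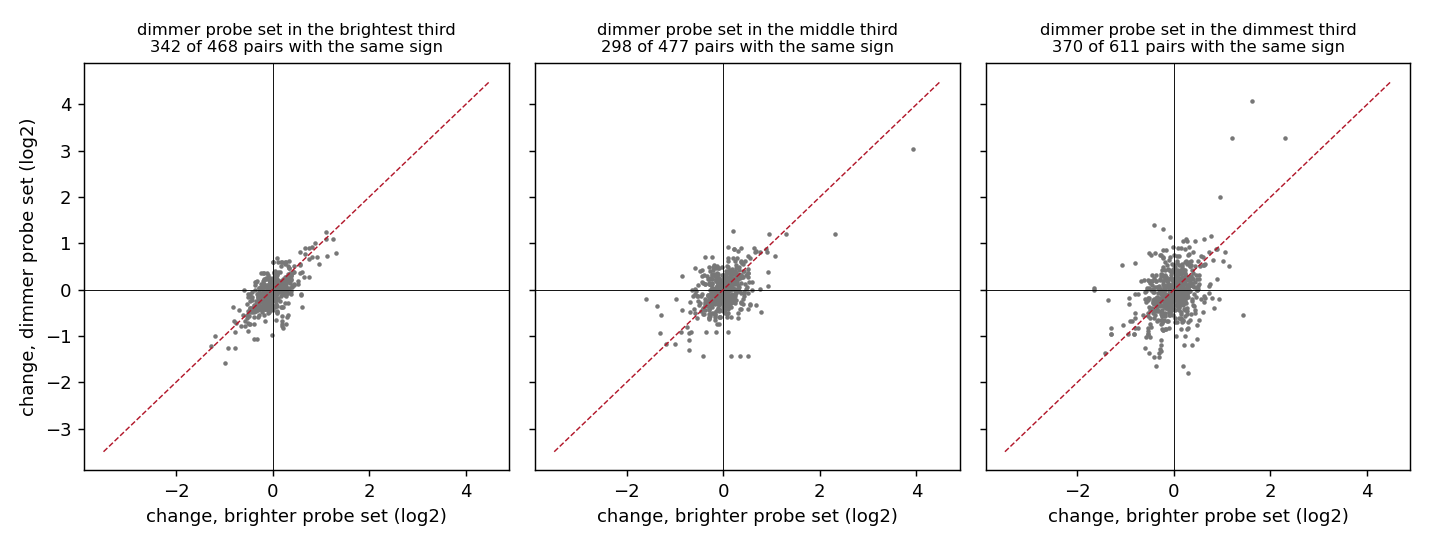
Change of the dimmer against that of the brighter probe set of the same gene (EtOH-160 minus EtOH-220, log2) for 1556 pairs, split by the brightness class of the dimmer one. The dashed line marks equality. The shares with the same sign were 342 of 468 in the brightest, 298 of 477 in the middle and 370 of 611 in the dimmest class.

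Whether energy supply acted alike without ethanol was asked by the difference between this change and that of TEN-160 minus TEN-220. The arrays of TEN-160 stood apart: on the first component of all 13 arrays (31.1% of the variance) they lay at 31.0 to 43.1 and the others at −13.6 to −2.98. The ratio of 2 control probe sets for a bacterial transcript added to the sample, BioDn, was 0.422 to 0.497 on them and 0.132 to 0.21 on the others. Diet and this difference between arrays cannot be told apart. The difference of changes was called for 370 of 5244 probe sets (7.06%) and for 16 of the 113 probe sets named by rule (14.2%). Apart from a fixed set, the 113 were picked by small p in EtOH-160 minus EtOH-220. That change is itself part of the difference tested, so a higher share among the 113 is built in and the shares cannot be compared. Among the 113, deposited values, in which TEN-220 replicate 1 was not scaled like the other arrays, gave 3 calls. The Gapdh ratio as a covariate gave 0, median-centred values gave 24 and array weights 21. Over all probe sets the count was 65 with the values as deposited, 1 with the Gapdh ratio, 554 with median-centred values, 126 without TEN-220 replicate 1 and 180 without TEN-220 replicate 2. Of the 10 called probe sets that name 1 gene, none was called in it. For Actg1 the change was −1.40 with ethanol and −1.23 without, and for Nr1d2 it was 2.81 with ethanol and 2.94 without. For Sds J03863_at the level was 3095 in EtOH-160, 204 in EtOH-220, 142 in TEN-160 and 47.6 in TEN-220. Of the 15 called, only S68944_r_at differed, by 2.6 (adjusted p = 0.00264), with 1.57 with ethanol and −1.04 without. Among the fixed genes Fasn differed by 2.32 (0.11 with ethanol and −2.21 without, adjusted p = 0.00686) and Igfbp1 by −2.90 (0.26 with ethanol and 3.16 without, adjusted p = 0.0453).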

How the data were processed

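Hepatic RNA was measured on 13 one-colour arrays. The deposited values are linear intensity, made by the authors with MAS5 per the submitters' processing notes; the sources used here give no version. Its 2%-trimmed mean was 501 on 12 arrays and 133 on TEN-220 replicate 1, so all arrays were quantile normalized. Signals under the 10th percentile (9.24) were set to it and taken to log2. The 59 control probe sets and the 40% of the other 8740 with the lowest mean were left out, leaving 5244: 4309 name 1 gene, 245 several and 690 none, in the array's annotation as given with the series, and 4297 were matched to the RefSeq gene table by Entrez ID. Background was the 95th percentile (44) of 19 controls for sequences foreign to the rat. Where a group's level lay below it, the lower bound of the fold takes that group's arrays under 44 at 44.

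Group means of the 4 groups were fitted with limma 3.58.1 (lmFit, eBayes with trend, 9 residual degrees of freedom) in R 4.3.3, two-sided, Benjamini-Hochberg over 5244. Arrays of TEN-160 and TEN-220 enter this contrast only through normalization, the filter and the estimate of spread. The number of arrays limits the precision, and replicates may be technical. Lists are described by counts and medians over genes, each by its brightest probe set, with no set test. For comparison, 6.52% of all 3130 genes had an unadjusted p under 0.05 upward in limma and 4.28% downward. Members, lists and tests were chosen with earlier results of these data known. Genes named are those with a called probe set, the 14 higher and 14 lower with the smallest p and no overlap, up to 4 genes of each list by p and a fixed set of genes. Members of a list beyond these, the genes in the account of agreement between probe sets, and probe sets without a single gene were chosen after their values were seen. The procedure was tested on simulated data. Alternatives were other normalizations, floors, filters, variance models, array weights, a replicate block, the Gapdh ratio as a covariate, the 7 arrays alone and leaving out each array. Promoter sequences are RefSeq's, GRCr8; of 9 called or clock genes looked up, 7 had an entry. Matplotlib 3.10.9 (Python 3.11.15) drew the plots.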

Additional observations from a re-analysis of the deposited data

Results flagged for a closer look

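In 6 of the 113 probe sets named by rule (5.31%), 1 EtOH-160 array lay farther from the other 3 than a Dixon test at the 95% level allows. Chance gives about 1 in 20 groups, near this share. Over all 5244 probe sets the far array was replicate 1 in 1.26%, replicate 2 in 1.81%, replicate 3 in 1.3% and replicate 4 in 1.51%. EtOH-160 replicate 1 lay at 738 in Sds J03863_at (others 4380 to 6030), at 41.2 in Dbp (others 750 to 1140) and at 306 in Hspa4 (others 260 to 267). EtOH-160 replicate 3 lay at 120 in the receptor Igf2r (others 36.1 to 38.5) and at 2070 in Cpt1a (others 794 to 865). EtOH-160 replicate 4 lay at 368 in RT1-Db1 (others 143 to 163). No cause was tested.

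In 16 of the 113 the change with ethanol differed from that without, by limma's interaction contrast with Benjamini-Hochberg adjustment over all probe sets. These contrasts use the TEN-160 arrays, which stood apart. Positive differences were found for Slc37a4 (1.30 and 1.68), Gnmt (1.37), Pdk2 (2.01), Gls2 (1.31), Plin2 (1.35), Hmox1 (1.74), Hpd (0.83), Gamt (0.79) and Fasn (2.32). Negative ones were found for Mapk9 (−1.36 and −1.08), Azgp1 (−1.40), Atp6v1d (−1.24), RT1-Ba (−1.77) and Igfbp1 (−2.90). In Azgp1, RT1-Ba and Gamt another probe set of the gene had a change with ethanol of the opposite sign. For Plin2 the change was −0.70 with ethanol and −2.06 without, for Hmox1 it was 0.95 with ethanol and −0.79 without, and for Pdk2 it was 1.13 with ethanol and −0.88 without. The adjusted p values lay between 0.00364 and 0.0453.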

How the results depend on the processing

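The count of 15 called probe sets was 15 with median-centred values, 17 with values as deposited (7 shared), 11 with trimmed-mean scaling, 12 without the TEN-160 group, 15 to 19 with other floors, 18 without the lowest 60%, and 11 to 15 with other variance models or array weights. It moved to 7 with the 7 arrays normalized and fitted alone, 6 with the 7 arrays fitted alone (4 shared in each), 3 with the Gapdh covariate, 54 at an adjusted p under 0.10 and 8 with deposited values of the 7 arrays (chosen after seeing the data). The 4 shared were the same in both fits, and Nr1d1 was the only single gene among them. With no filter it was 0, with 831 probe sets at an unadjusted p under 0.05 in limma. Leaving out each array gave 0 to 52. The cause of these shifts was not tested. The same replicate numbers did not pair the samples (correlations of 0.02, 0.06 and −0.11), and the fit with the number as a block called 3. The 16 differences between the ethanol and no-ethanol changes became 3 with values as deposited, 0 with the Gapdh covariate (13 at an unadjusted p under 0.05), 30 at an adjusted p under 0.10, and 6 to 19 leaving out each array. They numbered 24 with median-centred values and 21 with array weights. The measured agreement between probe sets of a gene was 59.8% with no filter and 67.7% without the lowest 60%. The Gapdh ratio difference of 0.38 was 0.27 to 0.52 leaving out each array.

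Direction turned only in uncalled changes of 6 genes. Cyp2e1 had 0.0149 with median-centred values and Cyp7a1 0.28 with the Gapdh covariate; with array weights Cps1 had 0.034 and Fasn −0.0584. Leaving out each array, Cps1 ran from −0.157 to 0.0806, Fasn from −0.144 to 0.472, Afp from −0.065 to 0.23 and Igfbp1 from −0.435 to 0.805. Over all named probe sets and settings, 3186 values kept direction and side of the threshold, 125 lost and 58 gained it, and 11 reversed. The settings include the adjusted p under 0.10, where only the threshold is looser, so part of the 58 came from that alone. Signals below 44 limit what can be said of dim genes.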
